A study of Mus musculus with 4 samples.

Results

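The genes described here encode the peptide hormones of the gastric endocrine cells and the proteins that make, store and package histamine in the stomach. They are Ghrl, Sst, Gast, Hdc, Chga, Chgb, Slc18a1, Slc18a2, Mboat4 and Ddc, chosen by symbol among probe sets annotated to 1 gene, 10 of the 22180 genes named on the array. Each of the 10 was measured by 1 such probe set. Their level was read in the gastric corpus, the acid-secreting body of the stomach, of adult mice aged 8 to 10 weeks. Wild-type mice (WT) of strain C57BL/6 were injected intraperitoneally each day for 14 days with saline vehicle or with metformin at 300 mg/kg, a biguanide drug used against diabetes. Mice without AMP-activated protein kinase activity in parietal cells (KO; Atp4b-cre with Prkaa1fl/fl and Prkaa2fl/fl) received the same 2 treatments. Prkaa1 and Prkaa2 encode the alternative catalytic subunits of that kinase, a sensor of cellular energy that metformin is known to activate. The Cre gene is driven by Atp4b, the gene of a proton pump subunit, so the deletion is directed to parietal cells and not to endocrine cells. The KO mice came from a B6/FVB Cre line and B6 floxed lines, so strain background and genotype cannot be told apart. There was 1 array in each of the 4 groups, and the sources used here do not say how many mice fed each array. A difference between 2 arrays therefore has no replicate check and is given as a size on the log2 scale, where 1 is 2-fold.

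Endocrine cells are scattered through the gastric glands and secrete into the blood or onto their neighbours. Enterochromaffin-like (ECL) cells of the corpus answer gastrin by releasing histamine, which drives acid secretion by parietal cells. They make it with histidine decarboxylase (Hdc), load it into vesicles with the vesicular monoamine transporter VMAT2 (Slc18a2) and are rich in chromogranin A (Chga), a granule protein shared by endocrine cells in general. X/A-like cells make ghrelin (Ghrl), whose acyl chain is added by the enzyme encoded by Mboat4, D cells make somatostatin (Sst), which restrains acid secretion, and G cells of the neighbouring antrum make gastrin (Gast). Chromogranin B (Chgb) is a second granin of endocrine and nerve granules, Slc18a1 encodes VMAT1 of serotonin-storing enterochromaffin cells, and Ddc encodes the decarboxylase that completes serotonin and dopamine synthesis.

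Promoters are shown for the 3 genes of histamine storage, which had the same order over the arrays, and for Chgb and Sst, which did not share it. Ghrl, whose windows are not printed, was also highest on WT vehicle and lowest on KO vehicle, as were 28.8% of the 11090 genes kept below. The genes shown were chosen with their values known, so motifs and values were not tested against each other. The stretch runs from 120 bases before to 20 after the gene's start in the RefSeq promoter table of build GRCm38.p6, which held 8 of the 10 genes. Capitals mark the cyclic AMP response element TGACGTCA, its variant TGACGTAA, the GC box GGGCGG (each searched on both strands) and TATAAA (searched on the gene's strand). A match is a run of letters and not a shown binding site.
Hdc (chr2:126618659-126618798, minus strand): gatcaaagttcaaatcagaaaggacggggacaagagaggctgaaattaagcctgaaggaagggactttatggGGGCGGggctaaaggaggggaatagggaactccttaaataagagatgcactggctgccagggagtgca
Slc18a2 (chr19:59260758-59260897, plus strand): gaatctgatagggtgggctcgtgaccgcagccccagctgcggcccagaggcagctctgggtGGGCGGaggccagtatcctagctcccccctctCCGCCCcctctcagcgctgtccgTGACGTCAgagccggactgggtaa
Chga (chr12:102554821-102554960, plus strand): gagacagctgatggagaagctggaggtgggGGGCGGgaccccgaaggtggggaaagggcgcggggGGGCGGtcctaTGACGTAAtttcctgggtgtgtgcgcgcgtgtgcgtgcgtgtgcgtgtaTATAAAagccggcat
Chgb (chr2:132781522-132781661, plus strand): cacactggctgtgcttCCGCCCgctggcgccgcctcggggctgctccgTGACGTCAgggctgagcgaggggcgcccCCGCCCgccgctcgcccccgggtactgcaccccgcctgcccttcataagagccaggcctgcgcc
Sst (chr16:23890825-23890964, minus strand): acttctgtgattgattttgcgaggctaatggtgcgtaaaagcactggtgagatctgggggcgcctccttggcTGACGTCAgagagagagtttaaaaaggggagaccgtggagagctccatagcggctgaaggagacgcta
The element TGACGTCA was found in Slc18a2, Chgb and Sst, and the variant TGACGTAA in Chga. Hdc held neither in its 300-base window and had 1 GC box, and the windows of Gast, Ghrl and Ddc held none of the 4 motifs. Of 32851 promoter windows of that length in the table, 1.79% held TGACGTCA, 0.499% held TGACGTAA, 35.7% the GC box and 8.32% TATAAA. Of the genes with TGACGTCA, Slc18a2 was lower on the KO vehicle array than on the WT vehicle array, Chgb was higher and Sst was nearly level. Chga, with the variant alone, was lower.

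The arrays differed over all genes, and that background bears on each value below. The 11090 genes whose mean log2 value reached the all-gene median of 5.03 were kept, and 8 of the 10 endocrine genes were among them. Mboat4 and Slc18a1 lay under that value, and their differences are not read as exact folds. The KO vehicle array stood apart, since its correlation with the WT vehicle array over the kept genes (Pearson r = 0.905) was the lowest of the 6 pairs, against 0.971 between the metformin arrays. Its median difference from WT vehicle was -0.22 over the kept genes, and 77.9% of differences past 2-fold were lower in KO, against 60.4% after cyclic loess scaling between arrays, which moved the median to -0.07. The difference also went with gene length: over 4 equal classes of protein-coding genes by RefSeq span (assembly GRCm38.p6) the medians were 0.0015, -0.21, -0.31 and -0.35 from the shortest class to the longest. Corpus glands were present on each array by their markers, with Atp4a, the proton pump of parietal cells, between 12.80 and 13.22, and Pgc, the pepsinogen gene of chief cells, between 13.99 and 14.02. Genes of the squamous forestomach were highest on the KO metformin array in 12 of 14 cases, with a summed linear level of 3755 there against 1041 to 1297 on the other arrays. Their part in the endocrine values was not tested.

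The genes of the histamine-storing cell were highest on the WT vehicle array, lowest on the KO vehicle array and between these on both metformin arrays. Hdc, the enzyme that makes histamine, had log2 values of 8.07 with vehicle and 7.62 with metformin in WT, and 7.38 with vehicle and 7.62 with metformin in KO. Slc18a2, the transporter that loads histamine into vesicles, had 8.22, 7.63, 7.29 and 7.54 on the arrays in the same order. Chga, the granule protein, had 11.24, 10.84, 10.23 and 10.72. For each of the 3 genes the metformin arrays of both genotypes lay close together, while the vehicle arrays were far apart.

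**Figure D1:**
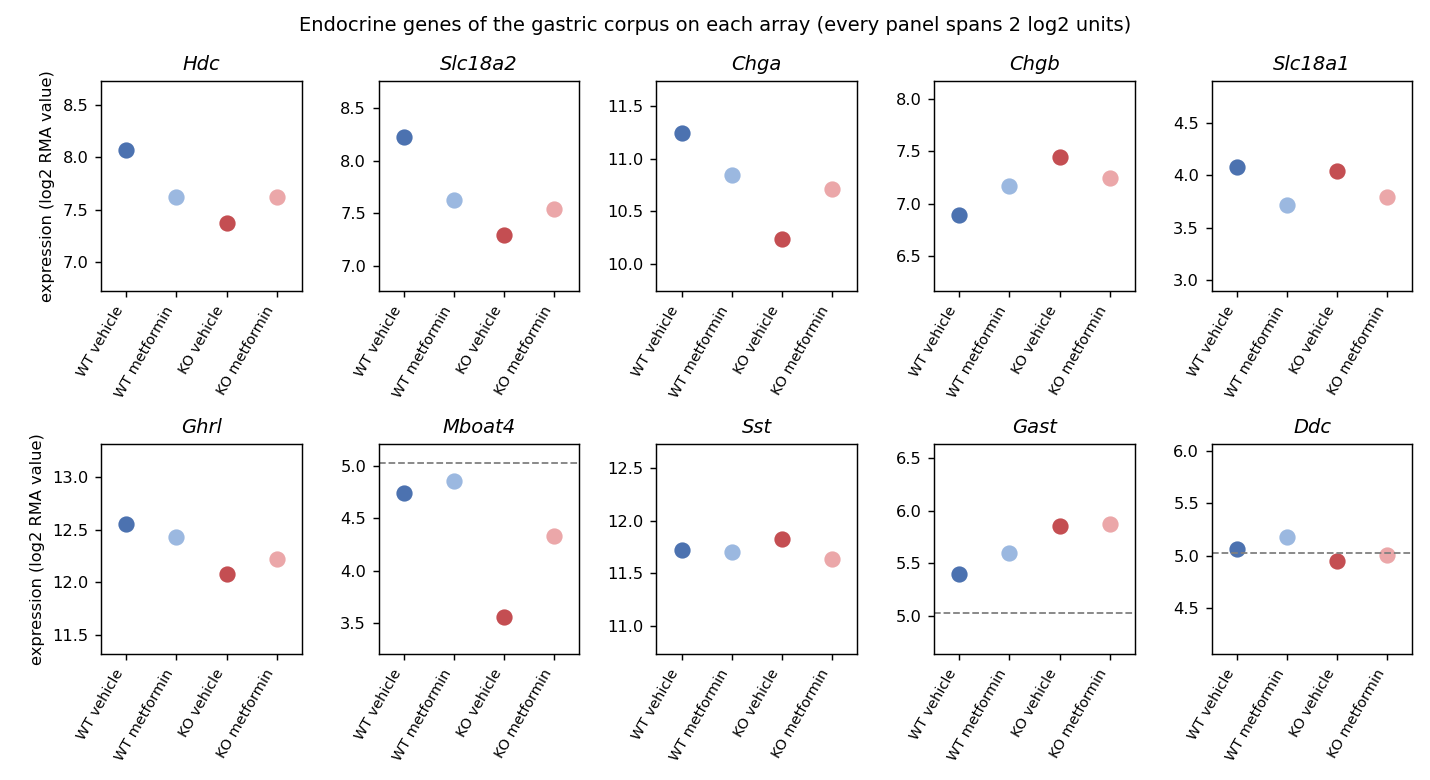
Log2 expression of each of the 10 endocrine genes on the 4 arrays, 1 point for each array, with every vertical axis spanning 2 log2 units and the dashed line at the filter value of 5.03 where it falls inside a panel. Hdc, Slc18a2 and Chga step down from WT vehicle to KO vehicle (Chga from 11.24 to 10.23), Chgb steps up from 6.89 to 7.44, and Sst stays between 11.64 and 11.82.

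Under vehicle, Chga was 2.01-fold lower in KO than in WT (-1.01 on the log2 scale), Slc18a2 was 1.91-fold lower (-0.93) and Hdc 1.62-fold lower (-0.70). Relative to the median of all kept genes these differences were -0.79, -0.71 and -0.48. Chga was the one kept endocrine gene past 2-fold in that comparison, 1 of 8, where 8.12% of all kept genes were at least 2-fold lower, 2.31% at least 2-fold higher and 10.4% past 2-fold in either direction. It lay just past that line, and after cyclic loess its difference was -0.82. Under metformin the same genes were nearly level between genotypes, at -0.13 for Chga, -0.08 for Slc18a2 and -0.00039 for Hdc. Under vehicle the Hdc difference lay inside the 10th to 90th percentile of all kept genes, -0.92 to 0.49. Because these are bulk tissue values from single arrays, fewer ECL cells, less RNA per cell and an array-wide difference cannot be told apart.

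Metformin went with lower values of the 3 genes in WT and higher values in KO. In WT the differences from vehicle were -0.60 for Slc18a2, -0.46 for Hdc and -0.40 for Chga. In KO they were 0.25, 0.24 and 0.48. The median of all kept genes was -0.14 in WT and 0.11 in KO. Relative to that median the 3 genes were at -0.46, -0.32 and -0.26 in WT, and 0.15, 0.13 and 0.37 in KO. The WT difference and the KO against WT difference under vehicle share the WT vehicle array, and the KO difference shares the KO vehicle array with the latter, so they are not separate findings. The order with WT vehicle highest and KO vehicle lowest was also that of 28.8% of the 11090 kept genes, and 9 of 16 parietal cell genes had it. Ghrl had the same order, which made 4 of the 8 kept endocrine genes.

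**Figure D2:**
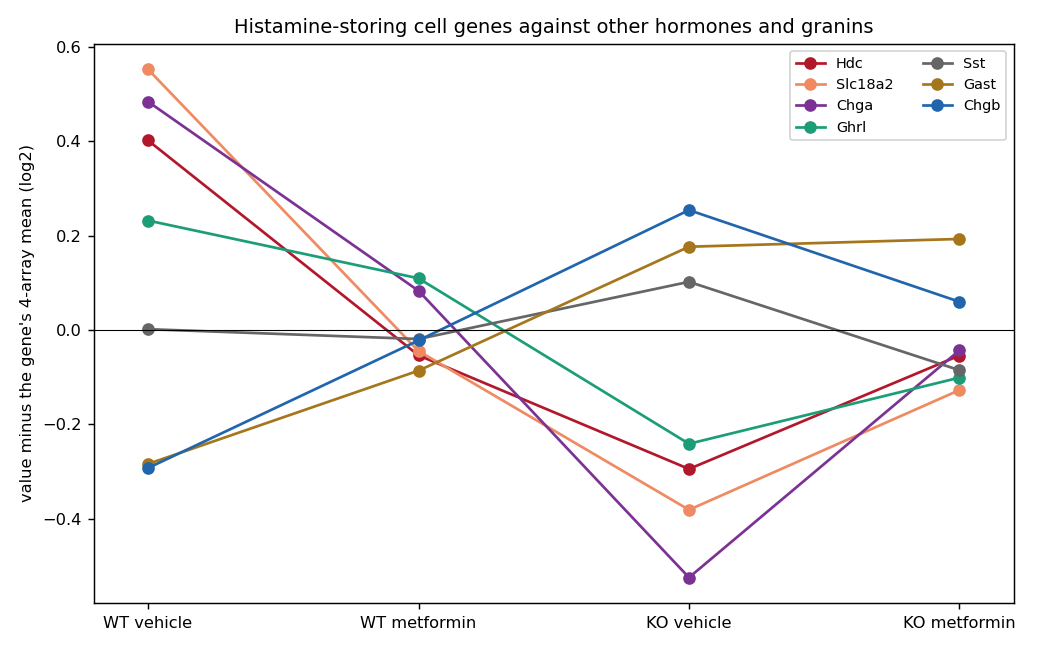
Value on each array minus the gene's own mean over the 4 arrays, in log2 units, for 7 kept endocrine genes, with lines joining the values of 1 gene as a guide. Hdc, Slc18a2, Chga and, less steeply, Ghrl are highest on WT vehicle and lowest on KO vehicle, while Chgb runs the other way.

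The second granin did not follow the first. Chgb had log2 values of 6.89 with vehicle and 7.17 with metformin in WT, and 7.44 with vehicle and 7.25 with metformin in KO, lowest where Chga was highest and highest where Chga was lowest. It was 1.46-fold higher in KO than in WT under vehicle (0.55), and 0.08 higher under metformin. Metformin went with a difference of 0.27 in WT and -0.19 in KO. The order with WT vehicle lowest and KO vehicle highest was that of 10.6% of kept genes. Chgb is also a gene of nerve cells, and of 13 measured enteric neuron genes 5 were kept, with KO at least 2-fold below WT under vehicle for 2 and at least 2-fold above it for 0. These were the receptor Ret (-1.08) and the vesicle fusion protein Snap25 (-1.40), which endocrine cells also make. Over all kept genes 8.12% were at least 2-fold lower and 2.31% at least 2-fold higher. The median KO against WT difference under vehicle was -0.28 over the 5 kept and 0.12 over all 13. The part of nerve cells in the Chgb values was not tested.

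Ghrelin was lower in KO with either treatment. Ghrl had log2 values of 12.55 with vehicle and 12.43 with metformin in WT, and 12.08 with vehicle and 12.22 with metformin in KO, so both WT arrays lay above both KO arrays. KO was 1.39-fold lower under vehicle (-0.47) and 1.16-fold lower under metformin (-0.21), and metformin went with -0.12 in WT and 0.14 in KO. Both genotype differences lay inside the 10th to 90th percentile of all kept genes, -0.92 to 0.49 under vehicle and -0.35 to 0.39 under metformin. The medians of those genes were -0.22 and 0.02. Mboat4, which encodes the enzyme that acylates ghrelin, had 4.74, 4.86, 3.56 and 4.33 in the same order of arrays, all under the filter value of 5.03. It too was lowest on the KO vehicle array, with a log2 difference of -1.18 from WT under vehicle and -0.52 under metformin. With no filter on low values 4.55% of 22180 genes were at least 2-fold lower in KO under vehicle, and Mboat4 was among them.

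Somatostatin was nearly level on all arrays. Sst had log2 values of 11.72 with vehicle and 11.70 with metformin in WT, and 11.82 with vehicle and 11.64 with metformin in KO, a range of 0.19. Its largest difference was -0.19, with metformin in KO. Within the same arrays Sst and the ECL genes thus moved apart: under vehicle the KO against WT difference of Chga minus that of Sst was -1.11, and for Slc18a2 and Hdc it was -1.03 and -0.80. Sst is a short gene, with a RefSeq span of 1.77 kb, as is Chga with 10.1 kb, and both fall in the shortest length class of protein-coding genes. Hdc (30.4 kb) and Slc18a2 (35.1 kb) lie in the third length class, whose median difference was -0.31. With cyclic loess and the trend on gene length removed, the contrast with Sst was -0.73 for Chga, -0.43 for Slc18a2 and -0.21 for Hdc.

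**Figure D3:**
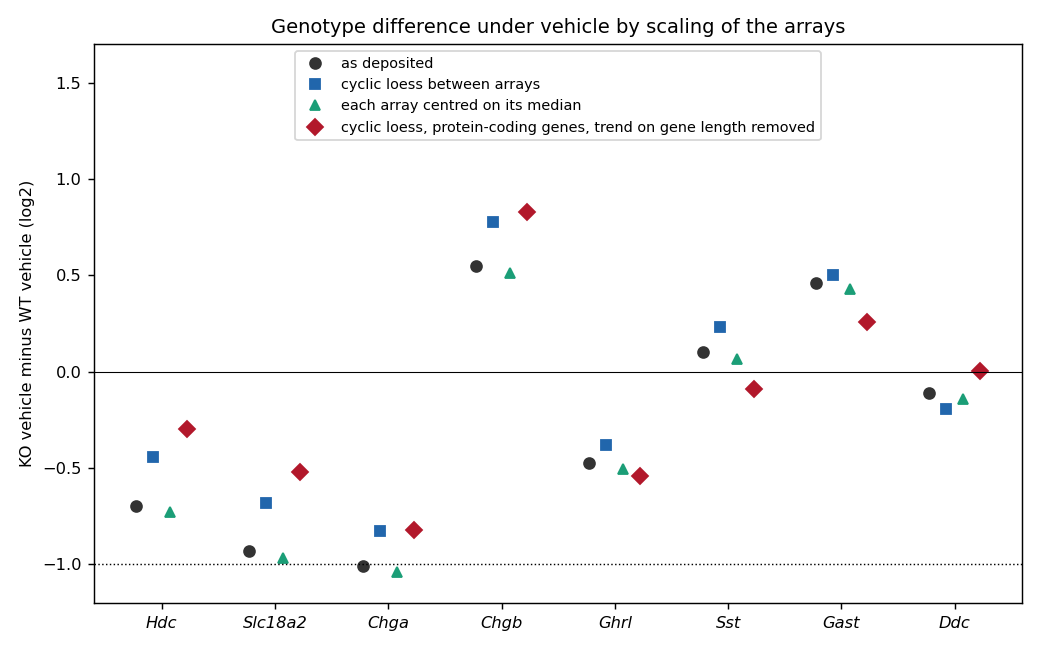
KO vehicle minus WT vehicle in log2 units for the 8 kept endocrine genes, as deposited and under 3 other scalings of the arrays, 1 point for each setting, with the dotted line at 2-fold lower. Hdc, Slc18a2, Chga and Ghrl stay below 0 and Chgb and Gast above 0 in each setting, and Hdc runs from -0.73 to -0.30.

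Gastrin was low and somewhat higher in KO. Gast had log2 values of 5.40 with vehicle and 5.60 with metformin in WT, and 5.86 with vehicle and 5.88 with metformin in KO, so both KO arrays lay above both WT arrays. The KO against WT difference was 0.46 under vehicle and 0.28 under metformin, and metformin went with 0.20 in WT and 0.02 in KO. Both genotype differences lay inside the 10th to 90th percentile of all kept genes, whose upper edges were 0.49 and 0.39. With cyclic loess and the length trend removed, the genotype differences of Gast were 0.26 and 0.30. Gastrin belongs to the antrum, and Pdx1, a transcription factor of antrum and duodenum, was at 3.92, 4.47, 5.02 and 4.46 on the arrays in the same order, each under the filter value. Of 13 antrum and duodenum genes 5 were kept. Under vehicle KO was at least 2-fold above WT for 1 (the fatty acid binding gene Fabp2, 1.72), beside 2.31% of all kept genes. It was at least 2-fold below WT for 1 (the transcription factor Gata5, -1.02), beside 8.12%. The summed linear level of all 13 was 2899, 2746, 2050 and 2144. Its largest part came from Apoa1, at 10.77, 10.69, 9.96 and 9.93 in log2. Under vehicle the median KO against WT difference was 0.33 over all 13 and -0.63 over the 5 kept. The part of antral tissue in the Gast values was not tested.

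The remaining amine genes were low. Ddc had log2 values of 5.06 with vehicle and 5.18 with metformin in WT, and 4.95 with vehicle and 5.01 with metformin in KO, around the filter value, and its largest difference was -0.18, between the metformin arrays. Slc18a1 was under the filter value on each array, at 4.07, 3.72, 4.04 and 3.80, with lower values on the metformin arrays of both genotypes (-0.35 in WT and -0.25 in KO). Tph1, the enzyme of serotonin synthesis in enterochromaffin cells, was under it as well, with its lowest value at 4.11.

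**Figure D4:**
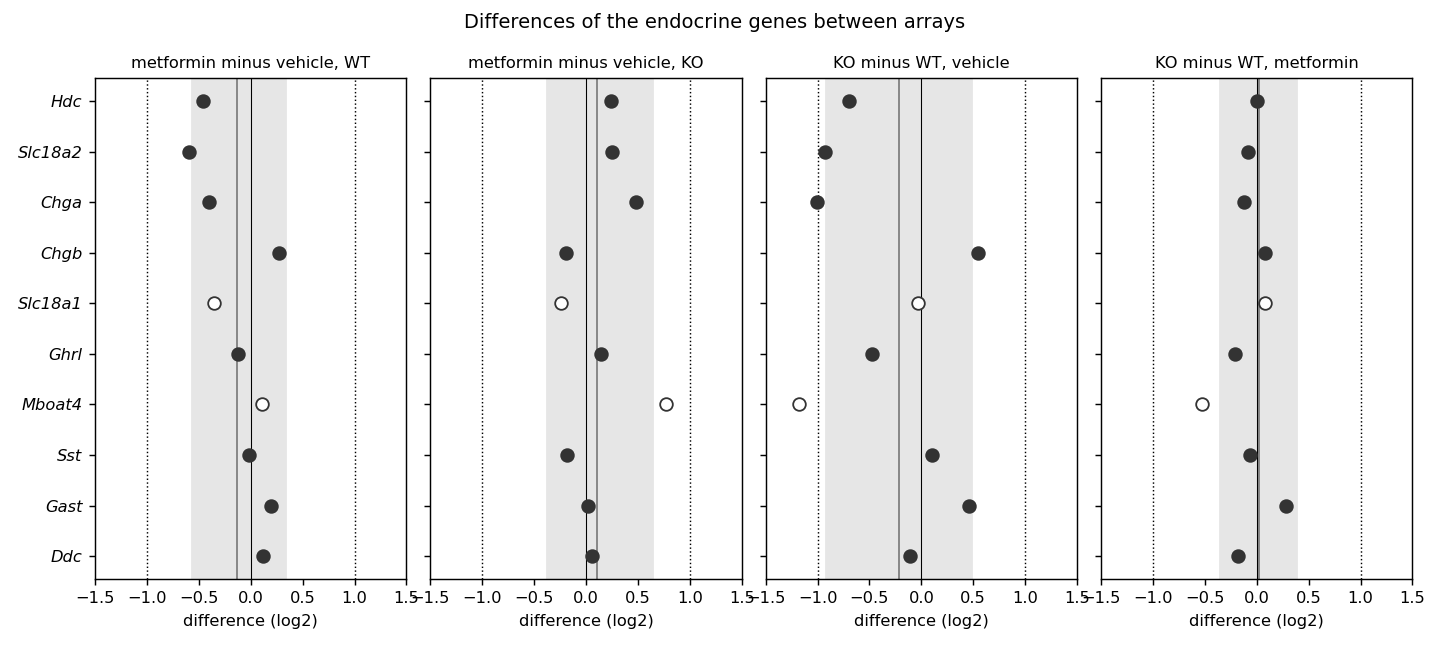
Log2 differences of the 10 endocrine genes in the 4 comparisons of arrays, with filled points for kept genes and open points for Mboat4 and Slc18a1, the grey band for the 10th to 90th percentile of all kept genes, the grey line for their median and dotted lines at 2-fold. Under vehicle Chga (-1.01) and Slc18a2 (-0.93) lie at or past the lower edge of the band at -0.92 and Chgb (0.55) past its upper edge at 0.49.

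Over the 8 kept endocrine genes, 0 differed by 2-fold with metformin in WT, 0 with metformin in KO and 0 between genotypes under metformin, where 1.7%, 3.06% and 0.92% of all kept genes did. Their median differences were -0.07, 0.10 and -0.07, beside -0.14, 0.11 and 0.02 over all kept genes. Under vehicle their median was -0.29, beside -0.22. For the difference of metformin responses (KO minus WT) Chga had 0.88, Slc18a2 0.85 and Hdc 0.70, and 0 of 8 reached 1, where 14.8% of kept genes did. An additive limma model of genotype and treatment was fitted to all kept genes. It has 1 residual degree of freedom, into which a true difference of responses would also fall. In that fit 0 of the 8 passed for genotype at a Benjamini-Hochberg adjusted p under 0.05, where 0.0451% of kept genes did, and 0 for metformin, where 0% did. Without adjustment limma also gave 0 of 8 under 0.05 for either effect. Of the 11090 kept genes, 374 were under 0.05 for genotype and 32 for metformin. The lowest of the 8 was Chga for genotype, with a mean effect of -0.57 (SE 0.33) and an adjusted p of 0.999 in limma. It was lower in KO in both pairs of arrays.

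Chga and Mboat4 had a range of at least 1 over the arrays, and protein-coding genes with the most similar profile were sought for them by the root mean square difference of mean-centred values over the 4 arrays. Nearest to Chga were Clstn2 (0.014), Fam83b (0.017) and Adgrl2 (0.019). Within 0.1 of its profile were 320 of 10549 genes. Nearest to Mboat4 were Csrp1 (0.055), Itga5 (0.07) and Cyp2c65 (0.083), and 6 of 10550 genes lay within 0.1.

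Other hormones of gut endocrine cells were described from a list of 18, of which 9 were kept. None of the 9 differed by 2-fold in any of the 4 comparisons, and their median under vehicle was 0.37 in KO against WT (0.27 over all 18), with 7 of 9 above the median of all kept genes. The incretin gene Gip was highest (0.82) and glucagon, Gcg, lowest (-0.35). With metformin in KO, 0 of 9 lay above the median of all kept genes (0.11), from Gcg at 0.10 down to secretin, Sct, at -0.67.

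Genes of prohormone processing and dense-core granules split in direction. Among the 16 kept of 19 measured, KO vehicle was at least 2-fold above WT vehicle in 2 and at least 2-fold below it in 2 (median 0.17). The shares over all kept genes were 2.31% above and 8.12% below. Higher were the vesicle GTPases Rab3b (1.66) and Rab3c (1.15), both below the filter on WT vehicle, so that no exact fold is read. Lower were the granule membrane protein Ptprn (-1.26) and secretogranin Scg3 (-1.19), whose KO vehicle values lie under it, at 4.55 for Ptprn. Ptprn was between 5.81 and 5.98 on the other 3 arrays, so the KO vehicle array alone was low. The prohormone convertase Pcsk1 (-0.28) and the carboxypeptidase Cpe (-0.41), which trim hormone precursors, had smaller differences under vehicle.

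Of 20 measured transcription factors of endocrine cells 10 were kept. Under vehicle 3 of these 10 lay above the median of all kept genes, and the median difference of KO from WT was -0.42 over the 10 kept and -0.01 over all 20. At least 2-fold lower was Etv1 (-1.07), as were 8.12% of all kept genes, and Insm1, an endocrine differentiation factor, was at 0.25. With metformin in WT the median was -0.48 over the 10 kept and -0.01 over all 20, with Isl1 at -0.61 and Nkx6-3 at 0.08. Neurog3, the factor that starts endocrine differentiation, was under the filter value on each array, between 3.30 and 4.72.

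**Figure D5:**
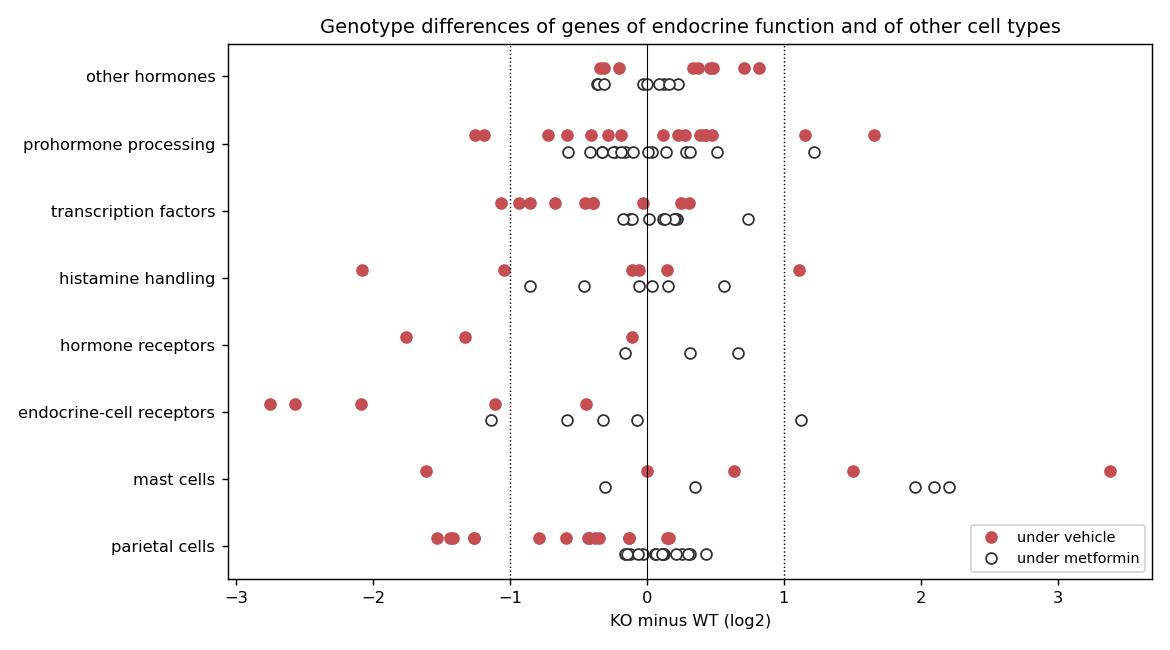
Log2 differences of KO from WT under vehicle (filled) and under metformin (open) for kept genes of 6 lists of endocrine function and of mast and parietal cells, 1 point for each gene and comparison, with dotted lines at 2-fold. Receptors of endocrine cells reach -2.75 (Glp1r) under vehicle, and mast cell genes spread from -1.61 (Kit) to 3.39 (Mcpt2).

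Genes that act on histamine after its release included lower and higher values. Under vehicle, KO was at least 2-fold below WT for 2 of the 6 kept genes (9 measured) and at least 2-fold above it for 1. The shares over all kept genes were 8.12% and 2.31%. Maob, a monoamine oxidase that oxidises histamine's methylated product, was at 8.31, 7.01, 6.23 and 7.16 in the order of arrays used above, in the order of Hdc with larger steps (-2.09 under vehicle). Hnmt, which methylates histamine, differed by -1.04 under vehicle. The histamine receptor Hrh2 of parietal cells was at -0.11 under vehicle and 0.56 under metformin, and the H3 receptor Hrh3, at 4.70 on the WT vehicle array, differed by 1.11. Maoa differed by -1.04 with metformin in KO, from 6.16 to 5.11.

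Of 8 receptors for gastrin, somatostatin and ghrelin, 3 were kept, and 2 of these were at least 2-fold lower in KO under vehicle, while the median was 0.25 over all 8. Beside this, 8.12% of all kept genes were that much lower and 2.31% that much higher. The gastrin receptor Cckbr, found on ECL and parietal cells, was at 7.20 with vehicle and 6.41 with metformin in WT, and 5.43 with vehicle and 6.25 with metformin in KO, 3.40-fold lower in KO under vehicle (-1.76). The cholecystokinin receptor Cckar was 2.52-fold lower (-1.33), and the somatostatin receptor Sstr2 differed by -0.11. The ghrelin receptor Ghsr was under the filter value in its mean, from 4.62 on WT vehicle to 5.45 on KO vehicle. Among receptors by which nerves and hormones reach endocrine cells, 5 of 18 were kept and 4 of these were at least 2-fold lower in KO under vehicle. Over all 18 the median was -0.04, and 8.12% of all kept genes were at least 2-fold lower. The 4 were Glp1r (-2.75), Vipr2 (-2.57), the PACAP receptor Adcyap1r1 of ECL cells (-2.09) and Calcrl (-1.11). Adcyap1r1 was also lower in KO under metformin (-1.14), while Glp1r was higher (1.13). Several of these receptors are also made by parietal, muscle or vessel cells, and 5 of 16 parietal cell genes were at least 2-fold lower in KO under vehicle, among them the water channel Aqp4 (-1.54).

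Mast cells also make and store histamine, and under vehicle their genes did not move as 1 group. Of 14 measured mast cell genes 5 were kept, and under vehicle KO was at least 2-fold above WT for 2 and at least 2-fold below it for 1. The shares over all kept genes were 2.31% above and 8.12% below. The protease Mcpt2 was higher by 3.39 from a WT vehicle value of 3.86, under the filter value, and the tryptase Tpsb2 was 2.84-fold higher, while the receptor Kit was lower (-1.61). Kit had the order of Hdc over the arrays, at 8.75 with vehicle and 7.92 with metformin in WT, and 7.14 with vehicle and 7.62 with metformin in KO. Which cells gave the Kit signal was not tested. The carboxypeptidase Cpa3 was higher in KO under vehicle (0.63), with a negative metformin difference in WT (-0.88) and a positive one in KO (0.70). Between the metformin arrays KO was at least 2-fold above WT for 3 of the 5 kept and at least 2-fold below for 0. In that comparison 0.92% of all kept genes differed by 2-fold in either direction. The median difference there was 1.96 over the 5 kept and 0.40 over all 14. The value of 1.96 is that of Mcpt2, which was under the filter value on both WT arrays. The summed linear level of the 14 genes was 897 with vehicle and 602 with metformin in WT, and 1036 with vehicle and 1312 with metformin in KO, and the IgE receptor gene Fcer1a was under the filter value on each array, between 2.84 and 3.69. The sum was higher in KO than in WT under vehicle, and it was lower with metformin in WT and higher in KO. Its largest part came from Kit on the WT arrays and from Cpa3 on the KO arrays, so between genotypes it does not follow 1 gene. The part of mast cells in the Hdc and Slc18a2 values was not tested. Pancreatic genes were low, with Ins2 between 2.40 and 2.59 and 1 of 8 measured genes kept, the lipase gene Cel (between 6.05 and 7.89).

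For monoamine synthesis and uptake 6 of 13 measured genes were kept. Under vehicle KO was at least 2-fold above WT for 0 (2.31% of all kept genes) and at least 2-fold below it for 1, Maob (8.12%). Among the others Gch1, which starts synthesis of the cofactor of tryptophan and tyrosine hydroxylation, stayed between 5.47 and 5.64. The hydroxylases themselves (Tph1, Tph2 and Th) were under the filter value on each array.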

How the data were processed

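Total RNA of gastric corpus from 4 groups, 1 array each, was made into biotin-labelled cDNA (Affymetrix WT plus reagents), per the labels' protocols. The deposited values are log2 expression, and the submitters' processing notes name RMA (robust multi-array average) and Partek. The sources used here give no version, setting or array build. The scale was read from the values (0.77 to 14.02), and their precision is limited by the number of arrays.

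Of 41345 probe sets, platform annotation pairs 23521 with 1 gene, 1814 with several and leaves 16010 unnamed here. Symbols were updated by gene identifier in a RefSeq table of GRCm38.p6 (23328 found). The probe set with the highest mean stood for a gene, which left 22180 genes, and the 11090 at or above the median mean (5.03) were kept. Differences are of log2 values, counted at an absolute size of 1. limma 3.58.1 in R 4.3.3 (lmFit, eBayes) fitted additive effects, with other steps in Python 3.11.15 (pandas 2.3.3, statsmodels 0.14.6). On simulated arrays with 200 of 11090 genes changed between genotypes (20 runs), limma recovered 29.4% at a log2 change of 1 (7.35 false calls a run), 99.7% at 2 (15.9) and 100% at 3 (16.9). The simulated arrays held independent noise and an additive genotype shift, with no difference of responses and no trend on gene length. Their rates therefore need not hold for the deposited arrays.

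The genes, lists and tests were chosen with earlier results of these data known. Named beside the 10 genes are, for each list and comparison, up to 2 kept genes past 2-fold in each direction or otherwise the highest and lowest, genes needed as markers, and the 3 nearest profiles. Calcrl, Cpe, Ghsr, Neurog3, Pcsk1, Pdx1, Tph1, Tph2, Th and some single values (Insm1, Hrh2 and Sstr2 under vehicle) were added for their role after their values were seen. Alternatives were other filters, cyclic loess, centring each array, means of probe sets, a 1.5-fold rule and other variance models. Cyclic loess with protein-coding genes alone and the trend on gene length removed (lowess, span 0.3) was chosen after seeing the data.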

Additional observations from a re-analysis of the deposited data

Results flagged for a closer look

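These genes had metformin differences of opposite sign in WT and KO. For the 10 endocrine genes that was the only rule, and the share of kept genes that meet it was not counted. The medians of all kept genes, -0.14 in WT and 0.11 in KO, had opposite signs as well. The difference between the responses was not tested, since each rests on 4 single arrays, and 14.8% of kept genes had one of at least 1 in size. None of the endocrine genes below reached that size. Among the 10 endocrine genes the KO response minus the WT response was 0.88 for Chga (-0.40 in WT, 0.48 in KO), 0.85 for Slc18a2, 0.70 for Hdc and 0.26 for Ghrl, and for Chgb it was -0.46 (0.27 in WT, -0.19 in KO). Among granule genes and transcription factors it was 1.03 for Scg3, 1.16 for St18, 1.06 for Runx1t1 and -1.01 for Rab3c, and for the peptide gene Cartpt it was -1.02. Among genes of histamine handling it was 2.24 for Maob (-1.31 in WT, 0.93 in KO) and -1.08 for Hrh3, and for Spr, of tetrahydrobiopterin synthesis, it was -1.26. Receptors had 3.88 (Glp1r), 2.25 (Vipr2), 1.64 (Cckar) and 1.60 (Cckbr). Mast cell genes had 1.58 (Cpa3), 1.31 (Kit) and -1.42 (Mcpt2), and nerve genes had 1.38 (Snap25) and -1.27 (Vip). For genes outside the 10, a place among kept genes and a difference of at least 1 between the responses were also asked for, in the lists of endocrine function, mast cells and nerves. With 1 array in each group, no array could be set against others of its group.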

How the results depend on the processing

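Of the 8 kept endocrine genes, 1 (Chga) was at least 2-fold lower in KO under vehicle as deposited. The count was 2 with no filter on low values (Mboat4 joined), 0 after cyclic loess, 0 with the trend on gene length also removed, and 3 at the 1.5-fold rule (Hdc and Slc18a2 joined, where 24.4% of kept genes were lower). At that rule 1 gene (Slc18a2) was lower with metformin in WT, where 9.06% of kept genes were, and 3 genes (Chga, Hdc and Slc18a2) differed in response, where 28.5% of kept genes were higher. Under the alternatives that were run, the difference of each of the 10 genes moved by less than 1.5-fold from its deposited value. That limit is wide beside differences of this size, so it does not show that they were stable. With the length trend removed, the KO against WT difference under vehicle went from -0.70 to -0.30 for Hdc and from -0.93 to -0.52 for Slc18a2. Signs turned for Ddc (0.04 after cyclic loess) in the difference of responses and Hdc (0.01 after centring) between metformin arrays. With the length trend removed they turned for Sst (-0.09) and Ddc (0.0034) under vehicle, and for Sst (0.07) and Gast (0.04) in the difference of responses. In limma the genotype fit called 5 of all kept genes, 3 with no filter, 10 after centring, 8 with a trend in the variance and 13 with the length trend removed. None of the endocrine genes passed the adjusted threshold for either effect under the alternatives run in limma. With no filter, 1 (Mboat4) had an unadjusted p under 0.05 for genotype in limma, where 764 of 22180 genes did. Cyclic loess moved the share of lower calls from 54.5% to 40.4% with metformin in WT and from 20.1% to 32.5% in KO. Without 1 array the additive fit has no residual degree of freedom, so no array was left out. No paired analysis was possible because each group holds 1 array.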
